A study of Mus musculus with 2 samples.

Results

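The interferon-high endothelial cells of the sham heart were 551 cells of the 6337 barcodes in the sham library and of the 14892 barcodes in the series. They were chosen by counts of unique molecular identifiers (UMIs, each marking 1 captured mRNA molecule). A member had at most 25% of its UMIs from mitochondrially encoded genes and at least 2 UMIs of the endothelial genes Pecam1, Cdh5, Kdr and Egfl7 together. It had at most 2 UMIs of the macrophage genes C1qa, C1qb and C1qc and at least 3 UMIs of the 6 interferon genes Ifit1, Ifit3, Isg15, Rsad2, Usp18 and Cxcl9 together. They were set against 1003 interferon-zero cells, which met the same endothelial, C1q and mitochondrial limits and had 0 UMIs of the 6 interferon genes. A further 833 cells had 1 or 2 such UMIs, which made 2387 cells within the endothelial limits.

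Hearts of male wild-type C57BL6/J mice operated on at 8 to 10 weeks of age were profiled by Drop-seq, a droplet method for single cells. The MI library came from 1 heart whose left anterior descending coronary artery had been ligated, a model of myocardial infarction. The sham library was a pool of 4 hearts from mice that had the same chest surgery with the suture left untightened, so both groups carried the surgery. Both were collected at day 14 after surgery, and perfusion before collection washed out blood. No label ties a sham cell to 1 of the pooled mice, so variation between mice was not measured, each condition was 1 library, and no difference below has a test. All intervals are 95% intervals that cover counting error only.

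The MI library held 33275336 UMIs, at a median of 2466 per barcode, and the sham library 11307405, at a median of 1424. The libraries shared 5 barcodes, 1 of them that of a member. Scrublet, a doublet caller, marked 28 members (5.08%) and 47 interferon-zero cells (4.69%), and these were kept. Members were deeper, with a median of 2332 UMIs, against 1436 in cells with 1 or 2 interferon UMIs and 1210 in interferon-zero cells. A rule that needs a number of UMIs takes deeper cells more readily, so levels are given as CPM, UMIs of a gene per 1000000 UMIs of the summed cells. Shares of cells are also given after each cell was thinned to 500 UMIs.

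Interferons are secreted proteins that bind receptors on the cell surface. Type I and type II interferons act through Janus kinases and STAT proteins, which switch on genes whose products block viral replication, tag proteins and present antigen. The interferon-stimulated response element, a sequence found in promoters of such genes, repeats the letters GAAA at a fixed spacing. Endothelial cells line the blood vessels and can answer both types of interferon, and heart capillary endothelium is known for taking up fatty acids.

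Promoters are shown for Rsad2 and Isg15, interferon genes of the selection added after values were seen, for Ifit3b and Cmpk2, taken by the rule for promoters, and for Gbp2, which that rule fixed by name. Each is 300 bases of RefSeq sequence on GRCm38.p6, the build equivalent to mm10, 250 bases before and 50 after the annotated start, 5′ to 3′ on the gene's strand. Capitals mark every match to GAAANNGAAA on either strand, so the reverse form reads TTTCNNTTTC.
Rsad2 (chr12:26456403-26456702, minus strand): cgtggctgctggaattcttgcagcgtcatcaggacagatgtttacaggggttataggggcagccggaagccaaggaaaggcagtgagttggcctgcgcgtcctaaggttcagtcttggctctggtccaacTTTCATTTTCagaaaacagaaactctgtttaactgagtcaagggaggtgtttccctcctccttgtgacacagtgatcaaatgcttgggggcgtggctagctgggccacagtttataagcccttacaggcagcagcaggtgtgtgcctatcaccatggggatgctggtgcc
Isg15 (chr4:156200769-156201068, minus strand): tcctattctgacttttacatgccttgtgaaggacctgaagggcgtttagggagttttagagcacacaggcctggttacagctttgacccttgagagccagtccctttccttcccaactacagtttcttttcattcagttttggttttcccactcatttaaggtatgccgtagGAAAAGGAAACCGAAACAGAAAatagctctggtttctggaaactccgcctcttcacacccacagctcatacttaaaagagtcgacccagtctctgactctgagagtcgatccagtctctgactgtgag
Ifit3b (chr19:34607707-34608006, plus strand): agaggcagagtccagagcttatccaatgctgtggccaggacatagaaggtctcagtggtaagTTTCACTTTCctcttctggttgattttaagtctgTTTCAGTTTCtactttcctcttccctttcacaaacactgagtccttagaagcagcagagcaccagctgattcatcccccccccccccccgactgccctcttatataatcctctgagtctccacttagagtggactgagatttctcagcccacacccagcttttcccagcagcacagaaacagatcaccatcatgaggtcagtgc
Gbp2 (chr3:142620413-142620712, plus strand): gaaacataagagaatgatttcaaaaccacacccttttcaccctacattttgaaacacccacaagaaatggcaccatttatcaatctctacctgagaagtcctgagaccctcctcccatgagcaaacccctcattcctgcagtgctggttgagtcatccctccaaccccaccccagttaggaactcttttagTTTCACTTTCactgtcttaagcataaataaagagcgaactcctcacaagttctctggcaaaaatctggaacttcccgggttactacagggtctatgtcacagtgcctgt
Cmpk2 (chr12:26468965-26469264, plus strand): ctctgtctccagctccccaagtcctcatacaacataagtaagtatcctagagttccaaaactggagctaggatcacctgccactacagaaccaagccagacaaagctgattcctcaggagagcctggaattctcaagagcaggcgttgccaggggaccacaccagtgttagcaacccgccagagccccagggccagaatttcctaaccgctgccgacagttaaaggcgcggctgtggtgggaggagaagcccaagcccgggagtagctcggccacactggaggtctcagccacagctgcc
Isg15 had 3 overlapping matches, Ifit3b had 2, and Rsad2 and Gbp2 had 1 each. Cmpk2 had none in this window, and neither did Ifi44 or Ifit2, the other genes the rule for promoters took. The motif was present in 3.44% of all 32851 promoter windows in the table. A promoter entry was found for 36 of the 46 antiviral genes measured, under 80%, so a share over that list was void and is not given.

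Rsad2 dominated the selection. It encodes viperin, an enzyme that makes a chain-terminating nucleotide, and lies on chromosome 12 (26442743 to 26456452, GENCODE vM21). It gave 1872 of the 3355 UMIs of the 6 genes in the members, and 88.9% of members had at least 1 UMI of it. Isg15, a ubiquitin-like protein that is attached to other proteins, gave 445 UMIs. The chemokine Cxcl9, which attracts T cells, gave 387. The RNA-binding genes Ifit3 and Ifit1 gave 294 and 237, and Usp18, which removes ISG15 and dampens receptor signalling, gave 120. These counts chose the cells, so they describe the group and test nothing.

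Few members carried the whole set. The 6 genes together had a median of 4 UMIs per member, a lower quartile of 3 and an upper quartile of 7. By number of genes detected, 126 members had 1 of the 6, 207 had 2, 141 had 3, 55 had 4, 16 had 5 and 6 had all 6. Rsad2 was the only gene detected in 116 members. Without Rsad2, 222 cells still reached 3 UMIs of the other 5 genes. A single cell stood far above the others with 221 interferon UMIs, against 38 in the next cell. It had 10057 UMIs in all, 84 of them Rsad2, 47 Cxcl9 and 43 Isg15, and 41 UMIs of the 4 endothelial genes.

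The limit fell between the 155 members with exactly 3 interferon UMIs, just inside, and the 302 cells with 2, just outside. Rsad2, which the rule itself counts, had 730 CPM just inside and 523 CPM just outside. The antiviral list, 51 listed interferon-induced genes that exclude the 6 used for selection, summed to 8520 CPM just inside and 7656 CPM just outside. Other cells' genes also differed, with lymphatic genes at 70.6 CPM just inside and 760 CPM just outside and hemoglobin genes at 133 CPM and 1550 CPM in the same order, and their part was not tested. Members made up 23.1% (21.4 to 24.8) of the 2387 cells within the endothelial limits. After thinning, 3.94% of those cells still had 3 or more interferon UMIs.

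The 6 selection genes were found in a larger share of sham endothelial cells than of other sham cells. They were chosen with earlier results of these data known, so these values are a description. At 500 UMIs per cell, 30.8% (29.0 to 32.7) of cells within the sham endothelial limits had at least 1 UMI of the 6 genes. The share was 8.80% in 1329 macrophage-marker cells, 6.67% in 1635 fibroblast-marker cells and 16.1% (8.02 to 27.7) in 62 mural-marker cells. It was 2.17% (0.0550 to 11.5) in 46 lymphocyte-marker cells, which is 1 cell. The background of free RNA was not measured. Median depths were 1453 UMIs in the endothelial cells, 1365 in macrophage-marker, 1493 in fibroblast-marker, 994 in mural-marker and 1262 in lymphocyte-marker cells. Rsad2 alone stood at 505 CPM (485 to 525) over all 2387 endothelial cells, against 61.3 CPM in macrophage-marker and 16.8 CPM in fibroblast-marker cells. Ifit3 was nearer to even, with 87.6 CPM in endothelial, 59.8 CPM in macrophage-marker and 51.9 CPM in fibroblast-marker cells. Cxcl9 had 109 CPM in endothelial, 9.57 CPM in macrophage-marker and 3.65 CPM in fibroblast-marker cells.

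**Figure D1:**
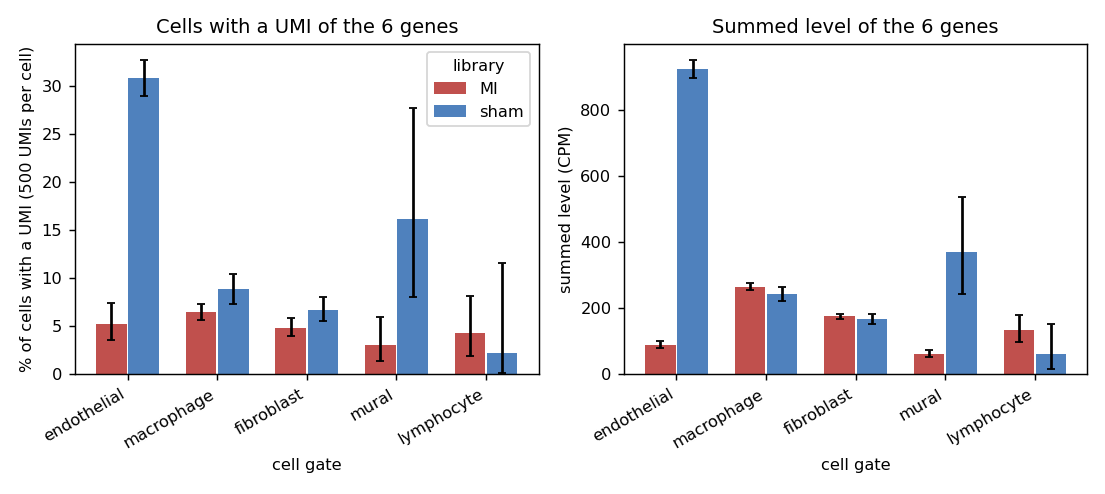
Left, percent of cells with at least 1 UMI of the 6 selection genes after thinning to 500 UMIs per cell; right, their summed level in CPM, by marker gate, in the MI (red) and sham (blue) libraries, with exact 95% counting intervals. Sham endothelial cells had the highest values, 30.8% and 923 CPM, against 5.24% and 88.7 CPM in MI endothelial cells.

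Endothelial genes that the rule did not use were present in both groups. The 14 general endothelial genes summed to 6200 CPM (6082 to 6320) in members and 6732 CPM (6604 to 6863) in interferon-zero cells, against 224 CPM in macrophage-marker cells. Cdh5, the junction protein VE-cadherin, chose the cells and so bears on the label no further. It had 879 CPM in members and 819 CPM in interferon-zero cells.

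Of 7583 genes with at least 50 UMIs in members and interferon-zero cells together, 88 (1.16%) were at least 2-fold higher in members and 166 (2.19%) at least 2-fold lower. The 13 selection genes and mitochondrially encoded genes were left out of these counts. The rule used this contrast, so the shares are printed as background and support nothing. The median log2 ratio over all 7583 genes was 0.01.

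Antiviral genes led the higher side. Of 46 antiviral genes measured, 17 were at least 2-fold higher in members while none was at least 2-fold lower, and the list's median log2 ratio was 0.77. The summed level of the whole list was 9633 CPM (9486 to 9783) in members and 6768 CPM (6639 to 6899) in interferon-zero cells, with 10040 CPM in macrophage-marker and 6144 CPM in fibroblast-marker cells beside them. Cmpk2, a mitochondrial nucleotide kinase whose gene adjoins Rsad2 on chromosome 12 (26469117 to 26479837), had 90.8 CPM in members and 18.7 CPM in interferon-zero cells. That is a log2 ratio of 2.28 (1.70 to 2.91). Mx2, a dynamin-like antiviral GTPase gene that GENCODE vM21 lists as a transcribed pseudogene, had 36.2 CPM in members and 7.73 CPM in interferon-zero cells, a log2 ratio of 2.23 (1.32 to 3.26). Without the 1 cell that had the most interferon UMIs, described above, its log2 ratio was 1.63.

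The same group held sensors and effectors of viral RNA. Ifit2, an RNA-binding relative of the selection genes Ifit1 and Ifit3, had 190 CPM in members and 63.1 CPM in interferon-zero cells (log2 ratio 1.59, 1.26 to 1.93). Oas1a and Oas1g, synthases of the messenger that activates RNase L, had log2 ratios of 1.99 and 1.83, and as near-identical copies their reads may be split uncertainly. Oasl2, a relative of the same synthases, had 67.1 CPM in members and 23.2 CPM in interferon-zero cells. Ifi44 had 106 CPM in members and 30.9 CPM in interferon-zero cells, and Rtp4, a chaperone of membrane receptors, had 131 CPM and 49.6 CPM in the same order. Ifit3b, listed in the files as I830012O16Rik, had the highest log2 ratio of the list, 3.91, but it is a near copy of the selection gene Ifit3, so its value is uncertain.

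Not every antiviral gene was higher. Ifi27 and Ifi27l2a, both interferon-induced genes, had log2 ratios of -0.37 and -0.32, and Ifitm2 of -0.02; these 3 were picked after values were seen. Outside the lists, the 12 higher genes of the naming rule held Pydc4, an interferon-induced pyrin-domain gene, at 45.1 CPM in members and 8.38 CPM in interferon-zero cells. They also held Mycn, a transcription factor of the MYC family, at 46.9 CPM in members and 15.5 CPM in interferon-zero cells (log2 ratio 1.60, 0.93 to 2.32).

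**Figure D2:**
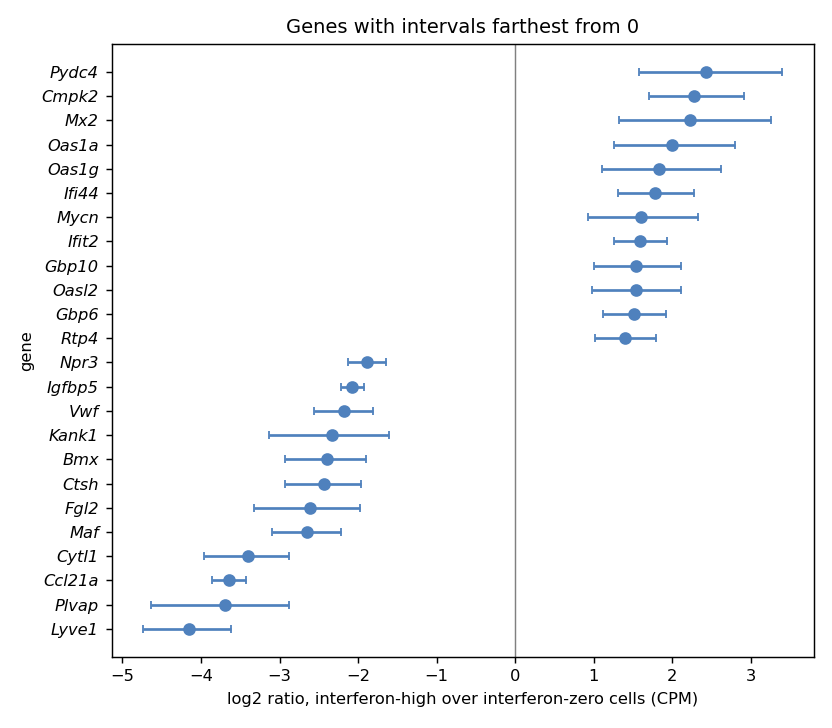
The 12 genes with the highest lower bound and the 12 with the lowest upper bound of the log2 ratio of interferon-high over interferon-zero sham endothelial cells; points are ratios of summed CPM and bars exact 95% counting intervals. The 12 higher genes run from 1.40 (Rtp4) to 2.43 (Pydc4) and the 12 lower ones from -1.88 (Npr3) to -4.15 (Lyve1).

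The GTPases typical of an interferon-gamma response were higher as well. All 18 measured guanylate-binding and immunity-related GTPase genes had a log2 ratio above 0, and the lower bound was above 0 for each of the 18. Over all 7583 genes measured, 3907 had a log2 ratio above 0 and 775 a lower bound above 0. Of the 18 GTPase genes, 4 were at least 2-fold higher and the median was 0.81. Their summed level was 4661 CPM (4559 to 4765) in members and 2761 CPM (2679 to 2845) in interferon-zero cells. Gbp6 had 132 CPM in members and 46.4 CPM in interferon-zero cells, and Gbp10, a close copy of it, had 71.2 CPM and 24.5 CPM in the same order. Gbp3 had 351 CPM in members and 178 CPM in interferon-zero cells, a log2 ratio of 0.98 (0.77 to 1.19). Gbp2, whose promoter is printed above, had 198 CPM in members and 111 CPM in interferon-zero cells.

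Of 8 interferon genes listed, 3 were measured in the sham cells, and the others, Ifnb1 among them, are not analysed here. Ifng, Ifnk and Ifne had 0 UMIs in members and 0 in interferon-zero cells, which with 3 counts as the floor allows 1.78 CPM in members and 1.93 CPM in interferon-zero cells. Of the receptor genes, which were named for their role, Ifnar1 had 60.5 CPM in members and 55.4 CPM in interferon-zero cells, and Ifngr1 had 247 CPM and 223 CPM in the same order. The intervals of both log2 ratios included 0, at 0.13 (-0.30 to 0.56) for Ifnar1 and 0.15 (-0.06 to 0.36) for Ifngr1.

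Of 22 sensing and signalling genes measured, receptors included, 8 had a lower bound above 0, against 775 of all 7583 genes. Of the 22, 1 was past 2-fold, and the median log2 ratio was 0.17. Stat2, a transcription factor of the type I response, had 130 CPM in members and 66.4 CPM in interferon-zero cells (log2 ratio 0.97, 0.63 to 1.32). Irf7, a transcription factor that amplifies interferon production, had 61.7 CPM in members and 30.9 CPM in interferon-zero cells. Ddx58, which encodes the viral RNA sensor RIG-I, had 121 CPM in members and 56.7 CPM in interferon-zero cells and was the gene past 2-fold. Herc6, the main ligase for ISG15 in mice, had 73.6 CPM in members and 28.3 CPM in interferon-zero cells, and the other 3 genes of ISG15 conjugation had log2 ratios of 0.33 to 0.57.

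Class I antigen presentation differed little. None of 18 class I genes passed 2-fold, and their median log2 ratio was 0.28. B2m, the class I light chain, had 5339 CPM in members and 4273 CPM in interferon-zero cells, and Tap2, a subunit of the peptide transporter, had 106 CPM and 70.2 CPM in the same order. Class II genes were lower in members, with 3 of 4 past 2-fold. Cd74, the class II invariant chain, had 46.9 CPM in members, 94.1 CPM in interferon-zero cells and 5720 CPM in macrophage-marker cells. The macrophage list moved with them, at 89.0 CPM in members and 184 CPM in interferon-zero cells, and its part in the class II values was not tested.

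Of 8 chemokine and checkpoint genes, 2 were at least 2-fold higher. Cd274, which encodes the T cell inhibitory ligand PD-L1, had 36.2 CPM in members and 15.5 CPM in interferon-zero cells (log2 ratio 1.23, 0.52 to 1.97). Il15, a cytokine for natural killer and memory T cells, had 32.0 CPM in members and 14.2 CPM in interferon-zero cells. Cxcl10, a chemokine related to Cxcl9, had 16 UMIs in members and 6 in interferon-zero cells, too few for the set of measured genes.

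**Figure D3:**
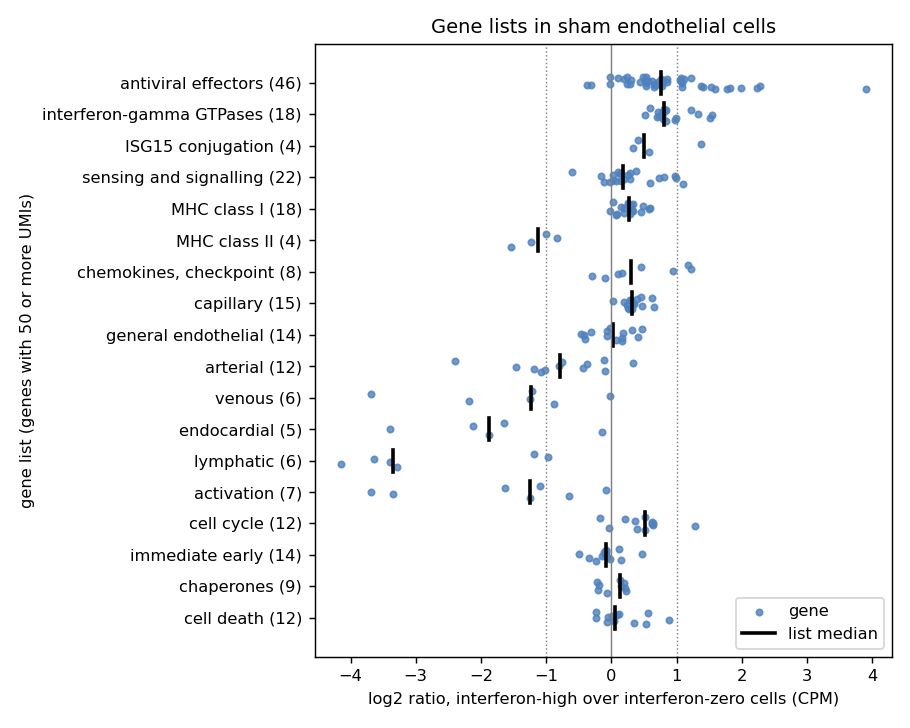
Log2 ratio of interferon-high over interferon-zero sham endothelial cells for each gene with at least 50 UMIs (points) and the median of its list (black bars), with the number of genes in brackets and dotted lines at 2-fold. Antiviral genes (median 0.77) and interferon-gamma GTPases (0.81) lie to the right, and endocardial (-1.88) and lymphatic (-3.34) genes to the left.

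Capillary genes were slightly higher in members. The 15 capillary genes summed to 26910 CPM (26662 to 27158) in members and 21634 CPM (21403 to 21867) in interferon-zero cells, with all 15 log2 ratios above 0, none past 2-fold and a median of 0.32. Fabp4, a fatty acid carrier, had 15564 CPM in members and 12450 CPM in interferon-zero cells. Car4, a carbonic anhydrase of the capillary surface, had 244 CPM in members and 155 CPM in interferon-zero cells.

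Genes of other vessel types were lower. Of 12 arterial genes 5 were at least 2-fold lower and none higher, with a median of -0.78, and Bmx, a kinase of arterial endothelium, had 23.7 CPM in members and 125 CPM in interferon-zero cells. Of 6 venous genes 4 were at least 2-fold lower, among them Vwf, the clotting protein von Willebrand factor, at 44.5 CPM in members and 202 CPM in interferon-zero cells. Plvap, which forms the diaphragms of permeable vessels, had 7.71 CPM in members and 99.9 CPM in interferon-zero cells. Of 5 endocardial genes 4 were at least 2-fold lower, and Npr3, a natriuretic peptide clearance receptor, had 109 CPM in members and 403 CPM in interferon-zero cells. Of 6 lymphatic genes 5 were at least 2-fold lower, and Lyve1, a hyaluronan receptor, had 17.8 CPM in members and 316 CPM in interferon-zero cells (log2 ratio -4.15, -4.73 to -3.62). Ccl21a, a lymphatic chemokine with near-identical copies, had 116 CPM in members and 1439 CPM in interferon-zero cells. Igfbp5, a binding protein for insulin-like growth factors, lay outside the lists and had 282 CPM in members and 1189 CPM in interferon-zero cells.

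The makeup of the groups by vessel type also differed. Cells with more than 0.5% of their UMIs from lymphatic, endocardial and venous genes were 13 of the 551 members (2.36%, 1.26 to 4.00) and 155 of the 1003 interferon-zero cells (15.5%, 13.3 to 17.8). With these cells left out of both groups, a comparison chosen after seeing the data, 73 of 7221 genes (1.01%) were at least 2-fold lower. In the main comparison it was 166 of 7583 genes (2.19%). Cells were removed here by the same lymphatic, endocardial and venous genes, so that filter itself lowers their counts in interferon-zero cells. The capillary median was then 0.12, and the log2 ratio of Npr3 was 0.22, turned in sign. The endocardial median was -0.19 over the 3 genes still measured and the lymphatic median -0.57 over 2. The antiviral median was 0.65, the GTPase median 0.76 and the arterial median -0.75. The arterial median was nearer 0 under other settings, at -0.37 without cells carrying other cell types' markers and -0.33 after thinning to 500 UMIs.

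Some members also carried markers of other cells. Fibroblast genes summed to 2119 CPM in members and 3235 CPM in interferon-zero cells, against 43389 CPM in fibroblast-marker cells. At least 1 UMI of the fibroblast list was found in 51.4% of members, and of the mural list in 45.9%. These 2 shares were not counted in interferon-zero cells, and members were deeper, so they do not compare the groups. Mural genes summed to 1673 CPM in members and 1385 CPM in interferon-zero cells, against 23227 CPM in mural-marker cells. Rgs5 gave 2221 of the 2819 mural UMIs in members. Of 8 mural genes, 4 had a log2 ratio above 0 and 4 below. T cell genes had 3 UMIs in members and 1 in interferon-zero cells. Natural killer cell genes had 34 UMIs in members, 28 of them in 1 cell, and 2 in interferon-zero cells. The 4 hemoglobin genes were all more than 2-fold higher, with 1017 UMIs in members and 214 in interferon-zero cells, but 7 members held 925 of the 1017. At least 1 hemoglobin UMI was found in 10.3% of members and 8.28% of interferon-zero cells. Cell cycle genes had a median of 0.52, with 1 of 12 past 2-fold, and 10 members held 40.5% of their 1621 UMIs. With every cell that had 2 or more UMIs of the macrophage, lymphocyte, fibroblast and mural lists left out, 203 members and 486 interferon-zero cells remained, the antiviral median was 0.63 and the GTPase median 0.83. The part of the hemoglobin-rich and dividing cells in other values was not tested.

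Interferon genes outside the selection stood higher where the 6 genes had more UMIs. The antiviral list summed to 6768 CPM at 0 interferon UMIs, 7554 CPM at 1 or 2, 8659 CPM at 3 to 5 and 10781 CPM at 6 or more. The GTPases summed to 2761, 3469, 3985 and 5457 CPM over the same 4 ranges. Class I genes went up less, and arterial and venous genes went down over the ranges. Median depth also went up, with 1210, 1436, 1944 and 3291 UMIs per cell. Among cells of 1000 to 3000 UMIs in both groups, the antiviral median was 0.96 over the 36 genes still measured, 1 of them at least 2-fold lower. The GTPase median was 1.16 over 15 genes. The makeup of these cells also differed, with a fibroblast median of -2.27, against -0.43 in the main comparison, and its part was not tested.

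**Figure D4:**
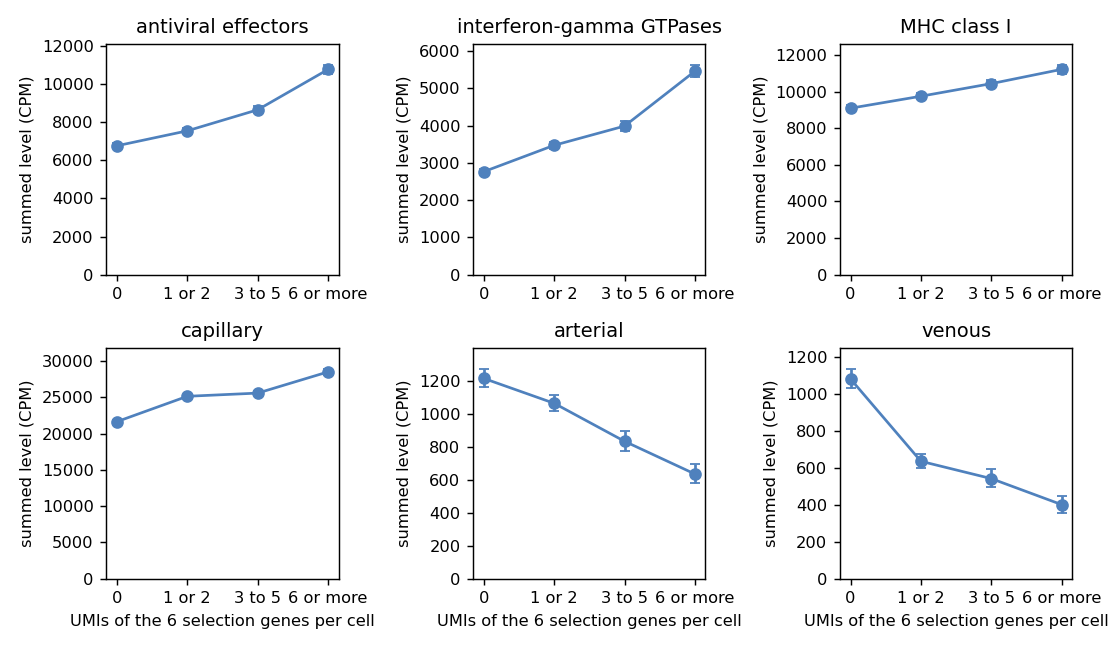
Summed level in CPM of 6 gene lists, none of which holds a selection gene, in sham endothelial cells with 0, 1 or 2, 3 to 5, and 6 or more UMIs of the 6 selection genes; bars are exact 95% Poisson intervals. Antiviral genes go up from 6768 to 10781 CPM over the 4 ranges, and venous genes go down from 1084 to 402 CPM.

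The members differed among themselves. In 227 members Rsad2 gave most interferon UMIs (at least 2 of Rsad2 and at most 1 of the others), while 77 members had at least 4 of the 6 genes detected. The antiviral list summed to 13714 CPM in the 77 cells and 8134 CPM in the 227 Rsad2-led cells, a log2 ratio of 0.75 (0.69 to 0.81). The GTPases summed to 7070 CPM in the 77 cells and 3549 CPM in the Rsad2-led cells, a log2 ratio of 0.99 (0.91 to 1.08). Capillary genes were at 28163 CPM in the 77 cells and 27408 CPM in the Rsad2-led cells. Mural genes were at 2173 CPM and 1213 CPM in the same order, fibroblast genes at 1585 CPM and 2834 CPM, venous genes at 509 CPM and 358 CPM and endocardial genes at 185 CPM and 72.3 CPM. The 77 cells include the member with 221 interferon UMIs, which held 592 of their 4310 antiviral UMIs. GTPases took 3.60% of that cell's UMIs. Median depth was 3369 UMIs in the 77 cells and 1934 in the Rsad2-led cells. The part of that cell, of depth and of other cells' genes was not tested. The Rsad2-led cells stood above interferon-zero cells by 0.27 for the antiviral list and 0.36 for the GTPases on the log2 scale. Other lists differed too, with capillary genes at 0.34, cell cycle genes at 0.49 and hemoglobin genes at 2.36. Arterial genes were at -0.95, venous at -1.60, endocardial at -3.41 and lymphatic at -5.08. The part of this makeup in the antiviral and GTPase values was not tested.

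Members were also divided by Cxcl9. The 188 members with a Cxcl9 UMI had 9947 CPM of the antiviral list, and the 363 without had 9425 CPM. The GTPases were at 4635 CPM in members with Cxcl9 and 4679 CPM in those without. Fibroblast genes were at 779 CPM in members with Cxcl9 and 3005 CPM in those without, and arterial genes at 554 CPM and 866 CPM in the same order. Median depth was 2924 UMIs with Cxcl9 and 2023 without.

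Cell by cell, the antiviral list took a median of 0.90% of a member's UMIs, from 0.14% to 5.89%. The GTPases took a median of 0.38%, from 0% to 3.77%. In interferon-zero cells the medians were 0.65% and 0.20%. The ranges overlapped widely, and the member with 221 interferon UMIs had the highest antiviral share. Its capillary share was 0.567%, against a median of 2.88% over members.

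**Figure D5:**
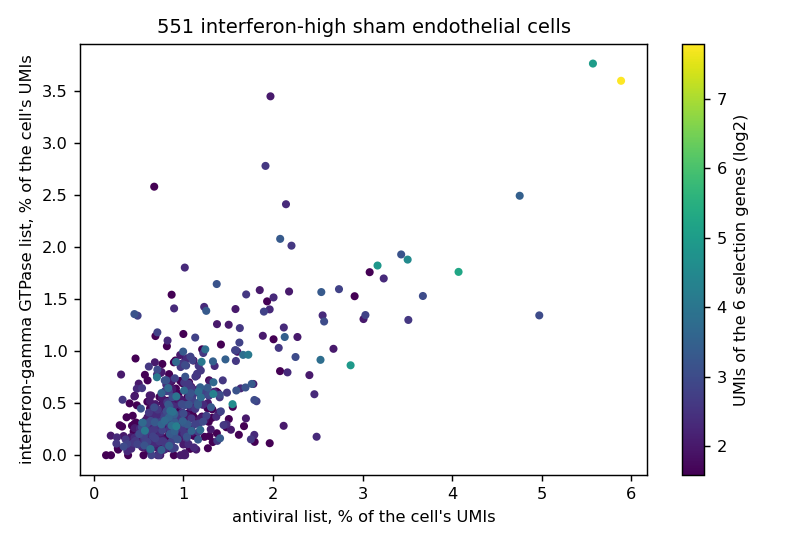
Share of UMIs from the antiviral list (x axis, percent) and from the interferon-gamma GTPases (y axis, percent) in each of the 551 interferon-high cells, coloured by log2 of the UMIs of the 6 selection genes. Most cells lie near the medians of 0.90% and 0.38%, with a sparse tail that reaches 5.89% and 3.77%.

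The MI library held few such cells by the same limits. Of 573 MI cells within the endothelial limits, 31 were interferon-high, 5.41% (3.71 to 7.59) against 23.1% (21.4 to 24.8) in sham, although the median depth was 3748 UMIs in MI and 1453 in sham. At 500 UMIs per cell, at least 1 UMI of the 6 genes was found in 5.24% (3.56 to 7.39) of these cells in MI, against 30.8% (29.0 to 32.7) in sham. Over all cells within the limits, Rsad2 had 27.8 CPM in MI and 505 CPM in sham, Isg15 had 25.9 CPM in MI and 126 CPM in sham, and Cxcl9 had 2.95 CPM in MI and 109 CPM in sham. In macrophage-marker cells the summed level of the 6 genes was 264 CPM in MI and 242 CPM in sham, and in fibroblast-marker cells 174 CPM in MI and 165 CPM in sham. All of these are values of the selection genes, so they describe the libraries and test nothing.

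Within MI, interferon-high cells differed from interferon-zero cells in several lists. The antiviral list was at 4925 CPM in the 31 MI interferon-high cells and 2937 CPM in 449 MI interferon-zero cells, and the GTPases at 1117 CPM and 585 CPM in the same order. The selection was by the same 6 genes, so this is a description. Immediate-early genes were at 7404 CPM in MI interferon-high and 4069 CPM in MI interferon-zero cells, chaperones at 3836 CPM and 2541 CPM, mesothelial genes at 879 CPM and 130 CPM, and capillary genes at 4848 CPM and 3212 CPM, all in the same order. Their part in the antiviral and GTPase values was not tested. Between libraries the MI interferon-high cells were lower than the sham ones, with a log2 ratio of -0.97 (-1.05 to -0.89) for the antiviral list and -2.06 (-2.24 to -1.89) for the GTPases. Their capillary genes were at 4848 CPM in MI and 26910 CPM in sham, and their fibroblast genes at 9629 CPM in MI and 2119 CPM in sham. Condition, library, mouse and the makeup of the endothelial cells cannot be told apart with 1 library each.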

How the data were processed

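1 MI and 1 sham Drop-seq library of mouse heart were used. For each library the authors deposited a table of unscaled UMI counts, with genes in rows and barcodes in columns. Per the submitters' processing notes the build was mm10 and the tools include Seurat (no role stated). Not given in the sources used here: aligner, counter, annotation, and the dissociation of hearts that, per the labels' protocols, were fixed and embedded. Every barcode had at least 500 genes with a UMI. Barcodes ending in N, 671 in sham and 317 in MI, were kept.

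Cells were gated by summed UMIs as described, after a mitochondrial limit of 25% that removed 34 sham and 114 MI barcodes. Marker gates for other cells needed 0 UMIs of the 4 endothelial genes. Counts were summed over the cells of a group and given as CPM of all their UMIs with exact Poisson intervals. Log2 ratios of members over interferon-zero cells have exact conditional binomial intervals, shares of cells exact Clopper-Pearson intervals. Each condition was 1 library, so no test was run, and a call means a fold of 2 by size among genes with at least 50 UMIs. List medians were taken over such genes.

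The members and gene lists were chosen with earlier results of these data known. Named genes were the 12 with the highest lower bound and the 12 with the lowest upper bound of the log2 ratio, with a UMI in at least 5% of cells of 1 group. Up to 4 genes per list with the bound farthest from 0, the 13 selection genes, Cd274, Cxcl10, Irf7, Ifng and Ifnb1 were added, and 1 further gene of the rule is not reported here; Ifnb1 in sham cells is not analysed here. Promoters were those of the 4 antiviral genes with the highest lower bound and a promoter entry, and of Gbp2, which the rule fixed by name. Mitochondrial, ribosomal protein, hemoglobin, Y-linked, Xist, Gm and Rik genes were left out of the ranking. Scrublet (scanpy 1.11.5) marked doublets, 334 in sham (5.30%) and 147 in MI (1.74%), kept in the main values and left out in an alternative. The ratio step was tested on simulated data. Scripts ran on Python 3.11.15 with pandas 2.3.3, numpy 2.4.6, scipy 1.17.1 and matplotlib 3.10.9.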

Additional observations from a re-analysis of the deposited data

How the results depend on the processing

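Of 147 values that answer a comparison under an alternative, 122 were counted as unmoved. This meant within 1.5 times for counts of genes and within the counting interval for the share. For list medians it meant between the medians of the genes' lower and upper bounds, which is the width for 1 gene. By that band the class I median of 0.28 was unmoved at 0.07 without cells carrying other cell types' markers. The arterial median of -0.78 was unmoved at -0.33 after thinning. No median of the antiviral, GTPase, class I, capillary or arterial list changed sign, and counts and shares could not. Other lists were outside the 147 values, and some changed sign. The mural median of 0.10 was -0.05 without lymphatic, endocardial and venous cells and -1.26 among cells of 1000 to 3000 UMIs. The members' share of endothelial cells, 23.1% as selected, was 19.8% among cells of 1000 to 3000 UMIs, 3.94% after thinning to 500 UMIs, 11.2% with at least 5 interferon UMIs, 20.4% without Cxcl9, 26.5% with at least 4 endothelial UMIs and 18.7% without cells carrying other cell types' markers. The 88 genes at least 2-fold higher (1.16% of 7583 measured) became 24 after thinning (0.84% of 2867). They became 263 (2.54% of 10339) and 31 (0.61% of 5109) with at least 20 and 100 UMIs per gene. Without cells carrying other markers they became 26 (0.74% of 3504). The 166 lower genes (2.19%) became 50 (1.74%), 412 (3.98%), 90 (1.76%) and 56 (1.60%) in the same order. With at least 5 interferon UMIs they became 258 (3.86% of 6686). The capillary median of 0.32 was 0.56 among cells of 1000 to 3000 UMIs and 0.13 without cells carrying other markers.

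Some alternatives were chosen after seeing the data. Without Rsad2 the share was 9.30% and the GTPase median 1.19. With at least 4 of the 6 genes detected the share was 3.23%, and 336 of 5634 genes (5.96%) were lower. The antiviral median was then 1.37 and the GTPase median 1.52, in cells that include the member with 221 interferon UMIs. Without lymphatic, endocardial and venous cells 73 of 7221 genes (1.01%) were lower, the capillary median was 0.12, and Npr3 reversed to 0.22. Those cells were removed by their lymphatic, endocardial and venous genes. Fewer cells or genes entered several of these, and the cause of the other shifts was not tested.

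Of the named genes' 1781 values under alternatives, 1535 stayed within their interval and 245 moved beyond it. A reversal was counted for genes at least 2-fold apart, which gave 1, Npr3. With smaller differences included, 19 values of 15 genes had the opposite sign. No paired analysis was possible because each condition was 1 library. Depth limits genes under 50 UMIs, Cxcl10 among them, and shares of cells, since members were chosen by a number of UMIs. Variation between mice was not measured.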
